A study of Homo sapiens with 2 samples.

Results

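The genes described are the replication-dependent and linker histone genes: every feature whose current symbol starts with H1- and a digit, or with H2AC, H2BC, H3C or H4C and a digit. This choice by symbol took 68 of the 30796 deposited features and used no measured value. There are 11 genes of the linker family H1, 14 of H2A, 19 of H2B, 12 of H3 and 12 of H4. The annotation used here (GENCODE release 29, on GRCh38) holds 66 of them and types 60 as protein coding, 5 as pseudogenes (H1-12P, H2BC19P, H2BC20P, H3C9P and H4C10P) and 1, H1-10-AS1, as antisense. H3C2 and H3C3 have no entry there. H1-10-AS1 meets the symbol rule but is a noncoding transcript beside H1-10, and H1-8 and H1-10 are linker histones outside the replication-dependent set.

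The cells are MDAMB468 and CAL51, 2 established human lines labelled as triple-negative breast cancer, a class defined by lack of oestrogen receptor, progesterone receptor and HER2 amplification. Each line is represented by 1 Drop-seq library of polyadenylated RNA with no treatment given in the labels. Drop-seq encloses each cell in a droplet beside a barcoded bead and tags every captured molecule near its 3′ end with a random identifier (UMI), so that a molecule is counted once. With 1 library per line there is no replicate, no test across samples was possible, and every interval below covers counting error only.

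Chromatin wraps DNA around octamers of H2A, H2B, H3 and H4, and H1 binds the linker DNA between them. Replication-dependent histone genes lie in clusters, are transcribed mainly in S phase through NPAT and its partners, and usually end their mRNA at a conserved stem-loop bound by SLBP instead of at a poly(A) tail. Some of these genes also make polyadenylated transcripts, which are the form that a poly(A)-primed library captures, and replacement histones are made outside S phase with a poly(A) tail.

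The MDAMB468 library held 306 barcodes and 5501900 UMIs, with a median of 10016.5 per barcode. CAL51 as used held 1346 barcodes and 16223444 UMIs, with a median of 8635. A further 31 CAL51-labelled barcodes, whose sequences also occur among the MDAMB468 barcodes, were left out: they carried 5.36% to 7.66% of the UMIs of their MDAMB468 counterparts, and 17 UMIs of H1-1. Another 64 MDAMB468 and 7 CAL51 barcodes, called satellites here and kept, are 1 base away from a same-line barcode that has 5 or more times their UMIs. The epithelial markers summed to 5818 CPM (UMIs scaled to a common total of 1000000 per sum) in MDAMB468 and 2801 CPM in CAL51, where KRT7, KRT5 and KRT14 were at 0. Of the subtype receptors, ESR1 had 3 and 0 UMIs, PGR had 1 and 1, and ERBB2 had 7.09 and 16.1 CPM. Immune and endothelial markers summed to at most 1.09 CPM, with CD3E and CLDN5 at 0 in both lines. The fibroblast list had no common direction. COL1A2, a collagen gene of that list, was at 0 in MDAMB468 and 53.2 CPM in CAL51. COL1A1, the only other gene of the list with at least 20 UMIs over both lines, went the other way. It had 22 UMIs in MDAMB468 and 11 in the larger CAL51 library.

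Summed histone transcripts were higher in CAL51, through 1 gene. The 68 genes gave 18347 UMIs in MDAMB468, or 3335 CPM (95% Poisson interval 3287 to 3383), and 67459 UMIs in CAL51, or 4158 CPM (4127 to 4190). The level in CAL51 was 1.25-fold that in MDAMB468 (exact conditional 95% interval 1.23 to 1.27). H4C3, which encodes histone H4 (ENSG00000197061, chr6:26103876-26104310), supplied 52.9% of these UMIs in MDAMB468 and 64.2% in CAL51. Its level was 1766 CPM (1731 to 1801) in MDAMB468 and 2670 CPM (2645 to 2695) in CAL51. Without H4C3 the other 67 genes summed to 1569 CPM in MDAMB468 and 1488 CPM in CAL51, so the order of the lines turned round. UMIs at the 3′ end count molecules and do not scale with transcript length, so these shares compare numbers of captured molecules. Less RNA per cell and fewer cells making a transcript cannot be told apart in such sums.

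The families differed in direction. H1 was nearly level, at 1266 CPM in MDAMB468 and 1297 CPM in CAL51, with a ratio of 0.976 (0.950 to 1.003). H2A was 1.50-fold higher in MDAMB468 (1.39 to 1.61), at 208 against 139 CPM. H2B was 2.23-fold higher in MDAMB468 (1.95 to 2.55), at 72.2 against 32.4 CPM. H3 had few captured UMIs in both, at 13.1 against 9.49 CPM. The 12 H4 genes summed to 1776 CPM in MDAMB468 and 2681 CPM in CAL51, of which H4C3 was nearly the whole. These family sums therefore rest on a few genes each, which are described below. They count captured polyadenylated molecules, and reads of near-identical copies may be missing. The sums therefore do not give the balance of all histone mRNAs between families.

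A gene was called higher or lower where its log2 difference of CPM + 1 (MDAMB468 minus CAL51) was at least 1 in size, that is 2-fold, among features with at least 20 UMIs over both lines. Of the 68 histone genes 36 reached 20 UMIs, and the other 32 had at most 19. Of the 36, 11 were called higher in MDAMB468 and 4 lower. Over the 15347 features that reached the minimum, 15.8% were called higher and 18.6% lower. The median difference was 0.16 over the 36 histone genes and -0.13 over all 15347 features. The dot plot of levels by line shows levels with their intervals.

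**Figure D1:**
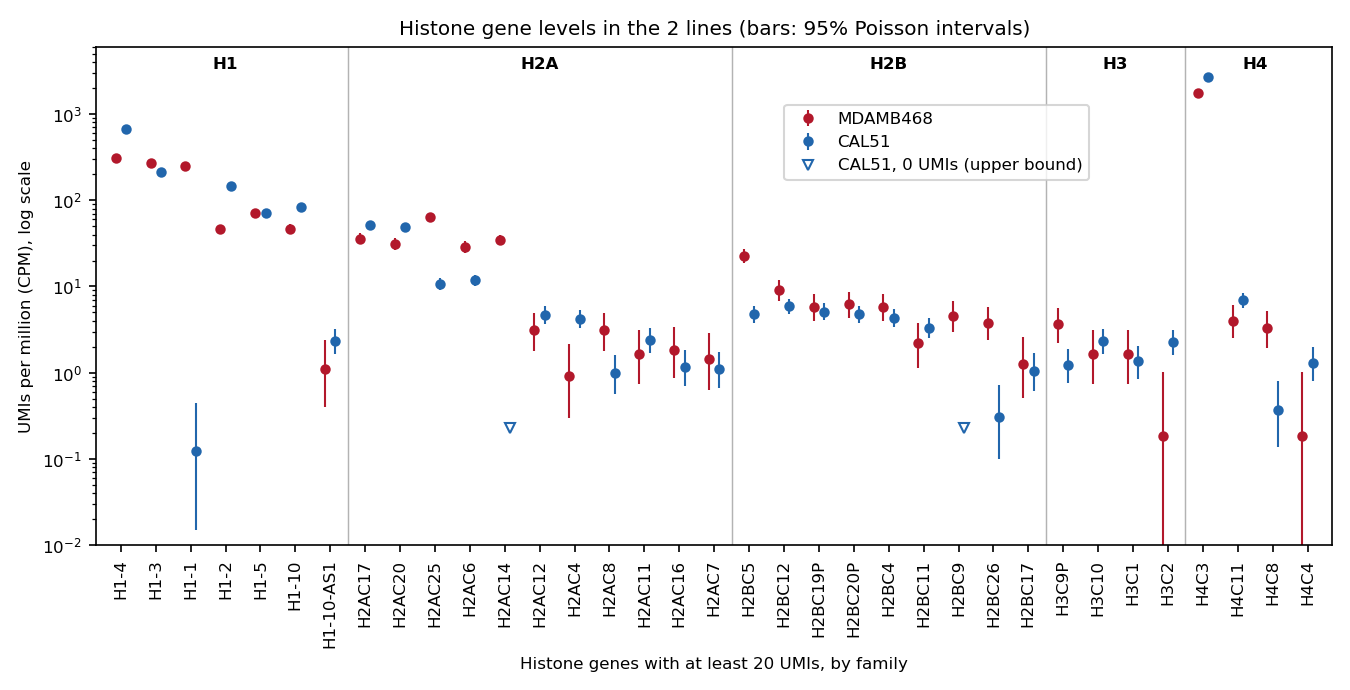
Levels of the reported histone genes with at least 20 UMIs, in CPM on a log scale, grouped by family. Points are the library sums, bars are exact 95% Poisson intervals, and triangles mark the upper bound where CAL51 had 0 UMIs. H1-1 and H2AC14 stand at 249 and 34.7 CPM in MDAMB468 and near or at 0 in CAL51, while H4C3 is the highest gene in both lines.

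The linker histones showed the widest contrast. H1-1 (ENSG00000124610, chr6:26017085-26017732, minus strand), a replication-dependent H1, had 1372 UMIs in MDAMB468, or 249 CPM (236 to 263). In CAL51 it had 2 UMIs, or 0.123 CPM (0.0149 to 0.445), and the ratio was 2023 (559 to 16719.8). With the 31 left-out barcodes kept, its CAL51 level was 1.16 CPM. After drawing 2500 UMIs from every barcode, 111 of 306 MDAMB468 barcodes held an H1-1 UMI, or 36.3% (exact binomial interval 30.9 to 41.9). No CAL51 barcode did, which allows up to 0.274% of the 1346 to hold a UMI at this depth and sets no limit on the share of cells that express the gene. Without the draw the shares were 65.7% and 0.149%. H1-1 made 19.7% of all H1 UMIs in MDAMB468 and 0.00952% in CAL51.

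H1-4 and H1-2 went the other way. H1-4 (ENSG00000168298, chr6:26156354-26157107), an abundant replication-dependent H1, was at 312 CPM (297 to 327) in MDAMB468 and 669 CPM (657 to 682) in CAL51. Its log2 difference of -1.10 became -0.90 with the mean CPM over barcodes and -0.9997 with a total that leaves out mitochondrial and ribosomal protein genes, both short of the threshold. H1-2 (ENSG00000187837, chr6:26055787-26056428) was at 46.2 CPM (40.7 to 52.2) in MDAMB468 and 147 CPM (141 to 153) in CAL51, 3.18-fold higher in CAL51 (2.79 to 3.63). H1-4 made 24.6% of H1 UMIs in MDAMB468 and 51.7% in CAL51. H1-2 made 3.65% and 11.3%.

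H1-3 and H1-5 were the linker genes nearest to level. H1-3 was at 269 CPM (255 to 283) in MDAMB468 and 215 CPM (208 to 222) in CAL51. H1-5 was at 71.6 CPM (64.7 to 79.0) and 70.4 CPM (66.4 to 74.6), with a ratio of 1.02 (0.905 to 1.14) and a log2 difference of 0.02 that ranged from -0.11 with TMM factors, a scaling that lowered the median of all features by 0.12, to 0.35 with mean CPM over barcodes. H1-10, a linker histone made outside S phase as well, had a log2 difference of -0.82, at 46.5 and 83.0 CPM. H1-10-AS1 had 6 and 38 UMIs. Its reads and those of H1-10 may not be separable where the genes overlap, since no source used here says whether strand was used in counting. The oocyte form H1-8 and the testis form H1-6 had 0 UMIs in MDAMB468 and 1 each in CAL51.

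All 5 replication-dependent H1 genes have a promoter in the RefSeq table (GRCh38.p14), and the 150 bases before their starts are shown because these neighbours differ so much in level between the lines. Capitals mark any match, on either strand, to the TATA string TATAAA, the CAAT box CCAAT, the octamer ATTTGCAT, the H1 box AAACACA and the E2F-like string TTTCGCGC, none of which contains another.
H1-1 (chr6:26017788-26017937, minus strand): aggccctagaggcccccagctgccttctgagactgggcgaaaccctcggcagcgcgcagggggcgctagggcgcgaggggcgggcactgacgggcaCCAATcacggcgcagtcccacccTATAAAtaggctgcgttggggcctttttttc
H1-2 (chr6:26056471-26056620, minus strand): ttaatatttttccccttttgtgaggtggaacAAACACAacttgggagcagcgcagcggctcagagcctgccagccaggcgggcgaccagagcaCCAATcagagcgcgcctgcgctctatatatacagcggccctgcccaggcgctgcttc
H1-3 (chr6:26234988-26235137, minus strand): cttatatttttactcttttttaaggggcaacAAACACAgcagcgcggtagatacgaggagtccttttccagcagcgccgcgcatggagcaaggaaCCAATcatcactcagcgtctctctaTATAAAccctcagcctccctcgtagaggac
H1-4 (chr6:26156179-26156328, plus strand): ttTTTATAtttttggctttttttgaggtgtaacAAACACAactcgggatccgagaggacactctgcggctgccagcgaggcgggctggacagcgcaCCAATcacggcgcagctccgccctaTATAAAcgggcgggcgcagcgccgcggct
H1-5 (chr6:27867589-27867738, minus strand): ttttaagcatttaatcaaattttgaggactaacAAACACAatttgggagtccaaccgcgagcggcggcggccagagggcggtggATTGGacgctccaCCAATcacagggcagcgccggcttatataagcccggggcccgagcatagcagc
H1-2, H1-3, H1-4 and H1-5 each hold AAACACA on the gene's strand 117 to 119 bases before the start, with CCAAT at 53 to 57 bases. H1-1 holds CCAAT at 54 bases and TATAAA at 31 bases, and its 1 match to AAACACA within 250 bases lies on the other strand, 183 bases before the start. A match is a string of letters in the reference, not a measured binding site.

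In the windows from 250 bases before to 50 after the start, 56 of the 68 genes have an entry, and the share with each string was set beside all 35097 promoters of the table. CCAAT was in 83.9% of the 56 against 34.6% of all promoters, and TATAAA in 66.1% against 11.5%. CCAAT was in each of the 13 H2A, 17 H2B and 9 H3 promoters and in 1 of 9 H4 promoters. The octamer was in 41.1% against 1.77%. It fell in 10 of 13 H2A and 13 of 17 H2B promoters, and in none of the 8 H1, 9 H3 and 9 H4 promoters. AAACACA was in 6 of 8 H1 promoters and in 14.3% of the 56, against 5.64% of all. TTTCGCGC was in 21.4% against 0.516%.

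Among the H2A genes, H2AC14 and H2AC25 differed most. H2AC14 (ENSG00000276368, chr6:27814354-27814740, minus strand) had 191 UMIs in MDAMB468, or 34.7 CPM, and 0 in CAL51. Against a floor of 3 counts in the CAL51 library it was at least 188-fold higher in MDAMB468, and the lower end of the exact interval of the ratio was 151. Only 16.8% of the 60-base windows of its longest annotated transcript occur in no other gene's annotated transcript, so reads could be shared with its near-identical copies and its value is uncertain. H2AC25 (ENSG00000181218, chr1:228456979-228457873, minus strand), from a small cluster on chromosome 1, had 63.8 CPM (57.3 to 70.8) against 10.7 CPM (9.19 to 12.4), a ratio of 5.95 (4.95 to 7.18). All of its windows were unique.

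H2AC6, H2AC17 and H2AC20 were the other H2A genes above 20 CPM in either line. H2AC6 (chr6:26124145-26139116) was at 28.7 CPM (24.4 to 33.6) in MDAMB468 and 11.8 CPM (10.2 to 13.6) in CAL51. H2AC17 was higher in CAL51, at 51.3 against 35.8 CPM (log2 difference -0.51, not called), with 14.1% unique windows. H2AC20, chosen after its values were seen, was at 31.3 and 49.1 CPM. H2AC4 had 5 and 68 UMIs and a log2 difference of -1.44, the only H2A gene called lower in MDAMB468. H2AC8, just inside the threshold at 1.04, had 17 and 16 UMIs.

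Of the 9 H2B genes that reached the minimum, 3 were called higher in MDAMB468, 6 were not called, and 0 were called lower. Over all features 15.8% were called higher and 18.6% lower, so 0 of 9 lower is no finding. H2BC5 (ENSG00000158373, chr6:26158146-26171349) was at 22.5 CPM (18.7 to 26.9) against 4.75 CPM (3.75 to 5.93), a ratio of 4.75 (3.54 to 6.40). H2BC9 (chr6:26251651-26253710) had 25 UMIs in MDAMB468 and 0 in CAL51, at least 24.6-fold higher against the floor, with 18.5 as the lower end of the exact interval. The left-out CAL51-labelled barcodes held 4 of its UMIs. H2BC26 had 21 and 5 UMIs, a ratio of 12.4 (4.54 to 42.0). The 6 without a call had log2 differences from -0.44 (H2BC11) to 0.54 (H2BC12).

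H3 and H4 genes other than H4C3 had few counts. H3C2 had 1 UMI in MDAMB468 and 37 in CAL51 and was called lower. The pseudogene H3C9P had 20 in each line and was called higher at 1.05. H4C8 had 18 and 6 UMIs, a ratio of 8.85 (3.36 to 27.2), and H4C11 had 22 and 112 (not called, with 19.4% unique windows). H4C4 had a log2 difference of -0.96. With a pseudocount of 10 CPM the calls of H2AC4, H2AC6, H2BC9, H2BC26, H3C2 and H4C8 were lost, since that scale shrinks differences between low values.

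The genes lie in a few clusters, defined here as genes at most 100000 bases from the next. The largest, chr6:26017085-26322292, holds 29 genes, of which 16 reached the UMI minimum, 7 were called higher in MDAMB468 and 3 lower. Over all features 15.8% were called higher and 18.6% lower. This cluster contains H1-1, H1-2, H1-3, H1-4 and H4C3, so genes of both directions sit side by side. Without H4C3 it summed to 959 CPM in MDAMB468 and 1066 CPM in CAL51. The second, chr6:27807075-27893843, holds 17 genes and summed to 161 against 136 CPM. On chromosome 1, H2AC25 and H2BC26 (chr1:228456979-228460470) were both higher in MDAMB468, at 67.6 against 11.0 CPM together and a ratio of 6.13 (5.11 to 7.37). The 9 genes at chr1:149782689-149887916, of which 3 reached the minimum, included no called gene and summed to 46.2 against 60.8 CPM.

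Many H2A and H2B genes are transcribed away from each other from a shared gap. There were 11 such pairs with under 1000 bases between the annotated starts, 10 of them an H2A with an H2B gene. In 5 pairs both genes reached the minimum, and in 3 of these the differences had the same sign. H2AC14 lies 303 bases from H2BC14 on the opposite strand. H2BC14 had 18 UMIs in MDAMB468 and 1 in CAL51, short of the minimum by 1 UMI, so nearly all UMIs of both genes of this pair came from MDAMB468. H2AC25 and H2BC26 lie 233 bases apart and were both called higher. The upstream sequences of the first pair are shown with the same capitals, because it is the pair with the fewest CAL51 counts.
H2AC14 (chr6:27814778-27814927, minus strand): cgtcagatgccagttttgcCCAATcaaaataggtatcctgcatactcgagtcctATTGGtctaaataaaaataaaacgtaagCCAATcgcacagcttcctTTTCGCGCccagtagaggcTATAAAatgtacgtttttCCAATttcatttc
H2BC14 (chr6:27814872-27815021, plus strand): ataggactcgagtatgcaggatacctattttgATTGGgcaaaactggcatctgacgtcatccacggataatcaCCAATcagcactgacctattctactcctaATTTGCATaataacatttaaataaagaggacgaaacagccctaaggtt
H2AC14 carries TATAAA 31 bases and TTTCGCGC 50 bases before its start, and H2BC14 carries the octamer 48 bases before its start. Both carry CCAAT.

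The link to S phase was examined within each line. Each barcode was called G1, S or G2M from lists of 43 S-phase and 54 G2M genes after drawing 2500 UMIs per barcode, and none of the histone genes is in either list. In MDAMB468 43 barcodes were called G1, 101 S and 162 G2M, and in CAL51 129, 424 and 793. These calls cut a continuous range: 119 of 306 and 529 of 1346 barcodes lay within 0.05 of a change of call, and a second draw gave the same call to 82.4% and 83.8%. The median UMIs of G1, S and G2M barcodes were 12955, 10806 and 9007 in MDAMB468, where 52 of the 64 satellites were called G2M. In CAL51 they were 6889, 7922.5 and 9454. The part of depth and satellites in the phase differences was not tested beyond the settings below.

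Histone transcripts were lowest in G1-called barcodes of both lines. In MDAMB468 they summed to 1120 CPM (1043 to 1202) in G1, 3871 CPM (3779 to 3964) in S and 3526 CPM (3460 to 3594) in G2M. In CAL51 they summed to 1485 CPM (1420 to 1553), 4126 CPM (4066 to 4187) and 4501 CPM (4460 to 4541). The S level was 3.46-fold the G1 level in MDAMB468 (3.21 to 3.73) and 2.78-fold in CAL51 (2.65 to 2.91). S and G2M were close, with log2 ratios of 0.13 in MDAMB468 and -0.13 in CAL51. The sign of that small difference turned with 1000 UMIs per barcode in CAL51 (0.018) and, in MDAMB468, with the lines scored together (-0.018) or with thinned counts (-0.014).

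Of the histone genes, 15 in MDAMB468 and 17 in CAL51 had at least 20 UMIs over S-called and G1-called barcodes. In MDAMB468 10 of the 15 were at least 2-fold higher in S, against 5.59% of 9066 features, and 3 were lower, against 1.59%. In CAL51 8 of the 17 were higher, against 3.96% of 11290 features, and 1 was lower, against 3.64%. The median log2 difference was 1.90 over the 15 genes and 0.01 over all features in MDAMB468, and 0.76 over the 17 and -0.06 over all in CAL51. Between S and G2M no histone gene was called in either line, of 20 and 25 that reached the minimum. There 0.982% of features were called higher and 2.48% lower in MDAMB468, and 0.232% and 0.77% in CAL51.

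Linker genes H1-2 to H1-5 and H4C3 were higher in S in both lines. H1-3 went from 23.2 CPM (13.3 to 37.7) in G1 to 330 CPM (304 to 358) in S in MDAMB468, a log2 difference of 3.77. Its G1 level rested on 16 UMIs, and the difference was 1.72 with phases from 1000 UMIs and 2.11 without satellites. In CAL51 it went from 70.6 CPM (56.9 to 86.6) to 302 CPM (286 to 319), a log2 difference of 2.08. H1-5 had 11.6, 93.9 and 72.4 CPM in G1, S and G2M of MDAMB468, and 16.1, 81.0 and 72.7 CPM in CAL51. H4C3 had 401, 2085 and 1890 CPM in MDAMB468, and 756, 2461 and 2991 CPM in CAL51, so its highest level was in S in one line and in G2M in the other.

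H1-4 had 101, 382 and 319 CPM in MDAMB468 and 226, 730 and 699 CPM in CAL51. H1-2 had log2 differences of 1.93 and 1.03, the second close to the threshold. Its call was lost in MDAMB468 with the lines scored together (0.84) or phases without thinning (0.85), and in CAL51 with thinned counts (0.57), by terciles of the S score (0.83) or with a pseudocount of 10 CPM (0.95). H2AC17 had 1.99 and 2.11, and H2AC20 had 1.34 and 1.25. These 7 genes made up the whole overlap of calls among the 13 genes that reached the minimum in both lines. Over all features 5.59% in MDAMB468 and 3.96% in CAL51 were called higher in S, and their overlap was not counted. No histone gene was called in opposite directions. With only 1.59% and 3.64% of all features called lower in S, that is no finding.

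The H1-1 and H2AC14 transcripts, counted almost wholly in MDAMB468, were likewise lowest in G1. H1-1 had 55.1 CPM (39.0 to 75.6) in G1, 292 CPM (267 to 318) in S and 269 CPM (251 to 288) in G2M, a log2 difference between S and G1 of 2.38. An H1-1 UMI was found in 6 of 43 G1, 40 of 101 S and 65 of 162 G2M barcodes after the draw. H2AC14 had 6, 75 and 110 UMIs, or 8.70, 42.7 and 36.0 CPM. In CAL51, H2AC12 had 2 UMIs in G1 and 32 in S.

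Several H2A and H2B genes were instead highest in G1. H2AC6 had 63.8 CPM (46.3 to 85.6) in G1, 22.2 CPM (15.8 to 30.3) in S and 24.6 CPM (19.3 to 30.8) in G2M of MDAMB468. In CAL51 it had 25.3, 15.9 and 8.42 CPM. H2AC25 had 114 CPM (90.6 to 143) in G1 and 44.4 CPM (35.1 to 55.4) in S of MDAMB468, and 16.9 and 9.43 CPM in CAL51. H2BC5 had 42.0, 25.6 and 16.4 CPM in MDAMB468 and 14.6, 3.68 and 3.97 CPM in CAL51, with log2 differences between S and G1 of -0.69 and -1.73.

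Of these, H2AC6 and H2AC25 were called lower in S in MDAMB468 and not in CAL51, and H2BC5 in CAL51 and not in MDAMB468. These splits ended in other settings. With the lines scored together H2AC6 was at -1.85 and H2AC25 at -1.06 in CAL51, and in a second draw H2BC5 was at -2.17 in MDAMB468. The top against the bottom tercile by S score left little of the pattern in CAL51. There H2AC6 was at 0.0006 and H2AC25 at -0.009, and H2BC5 lost its call at -0.69. H2BC12, named after its values were seen, was called lower in MDAMB468 with 15 and 13 UMIs, and had 4.60 and 5.29 CPM in G1 and S of CAL51. Whether the lines differ in these links was not tested. H1-10 was called higher in S in MDAMB468 (log2 difference 1.60) and not in CAL51 (0.23).

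**Figure D2:**
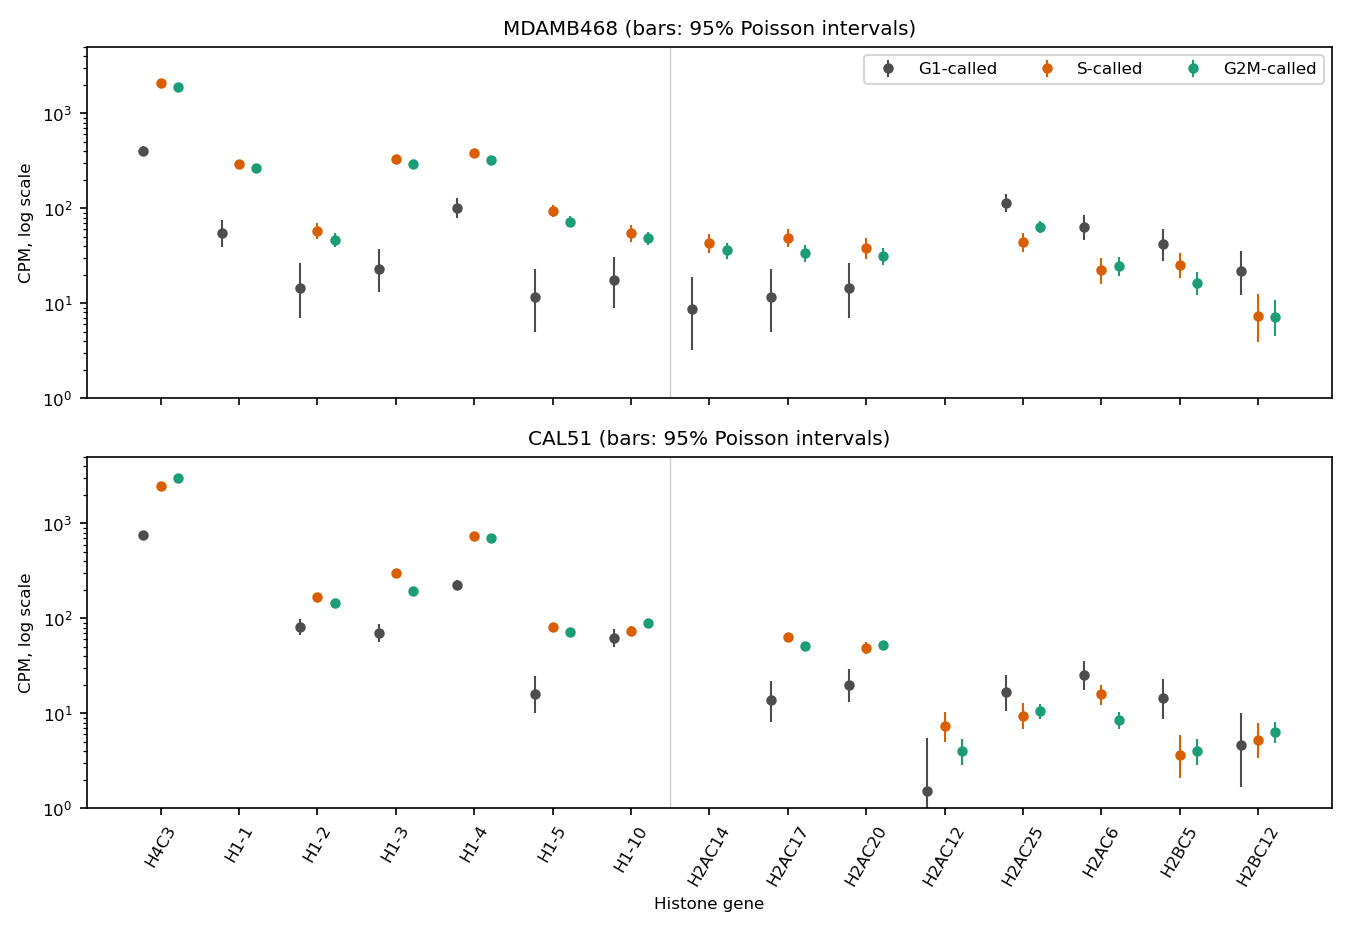
Levels of 15 histone genes in G1-called, S-called and G2M-called barcodes of each line, in CPM on a log scale, with exact 95% Poisson intervals. Points are shown where a gene had at least 20 UMIs in the line. Where shown, H4C3 and H1-1 to H1-5 lie lowest in G1, whereas H2AC25, H2AC6 and H2BC5 lie highest in G1.

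Not all of these calls held in other settings. With phases from 1000 UMIs, H1-10, H2AC14, H2AC17 and H2AC25 lost their calls in MDAMB468 and H2AC12 its call in CAL51, with no change of sign. Without satellites H2AC25 also lost its call. Comparing the top with the bottom tercile of barcodes by S score, 3 genes instead of 8 were called higher in CAL51, where H4C3 had a log2 difference of 0.43 instead of 1.70 and H1-4 0.87 instead of 1.69.

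The genes highest in G1 include 3 with the histone stem-loop inside an annotated transcript that runs on past it. The search was for 16 bases with a perfect 6-base stem that starts with GG and a 4-base loop that starts with TT. It found such a site in an annotated transcript of 24 of the 66 annotated genes, and for 18 of them at least 100 bases of transcript follow it. The sites of the 3 genes are shown with 5 bases on each side, the stem-loop in capitals, on GRCh38 as annotated.
H2AC6 (chr6:26124664-26124689, plus strand): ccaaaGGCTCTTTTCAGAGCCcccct
H2AC25 (chr1:228457364-228457389, minus strand): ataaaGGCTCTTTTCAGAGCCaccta
H2BC5 (chr6:26158582-26158607, plus strand): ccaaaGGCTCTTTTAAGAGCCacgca
The transcripts of H2AC6 and H2AC25 run on for up to 1128 and 390 bases after the site. For H2BC5 the site was found only in a transcript of 496 bases that ends 39 bases after it. It was not found in the longest H2BC5 transcript, of 789 bases. In MDAMB468, 0 of the 10 genes higher in S and 2 of the 3 lower in S had a site in an annotated transcript. In CAL51 these counts were 0 of 8 and 1 of 1. Among the genes not called, 1 of 2 in MDAMB468 and 3 of 8 in CAL51 had a site. One of the 3 was H4C11, with a log2 difference between S and G1 of 0.58. For H1-1 to H1-5, H4C3, H2AC14, H2AC17 and H2AC20 this search found no site, which says only that these letters are not within the annotated transcript. The annotated transcripts of H2AC14, H2AC17 and H2AC20 are 387, 393 and 390 bases long. An annotation that ends before a site cannot show it, so these counts cannot say whether the groups of genes differ.

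Single barcodes varied widely within a phase. With 2500 UMIs drawn from each, the median number of histone UMIs was 2 in G1, 7 in S and 7 in G2M of MDAMB468, and 3, 6 and 10 in CAL51. At least 10 histone UMIs were found in 4.65%, 39.6% and 37.0% of G1, S and G2M barcodes of MDAMB468, and in 2.33%, 37.7% and 50.2% in CAL51. The highest barcode held 48 in MDAMB468 and 47 in CAL51, both called G2M. No histone UMI was found in 12 of 43 G1 barcodes of MDAMB468 and 10 of 129 of CAL51.

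**Figure D3:**
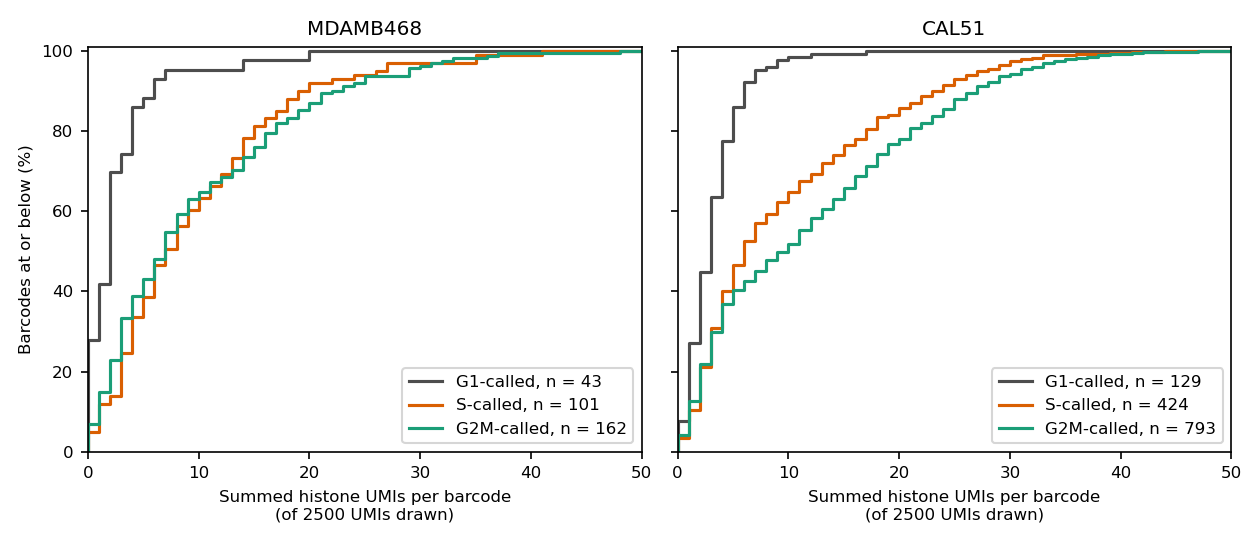
Cumulative share of barcodes (%) by their summed histone UMIs among 2500 drawn UMIs, for G1-called, S-called and G2M-called barcodes of each line. The G1 curves rise earliest, with medians of 2 and 3, and the S and G2M curves overlap widely.

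Across the 306 MDAMB468 barcodes, Spearman's rho between the drawn histone UMIs and the S score was 0.487, and with the G2M score 0.277. Across the 1346 CAL51 barcodes the values were 0.209 and 0.165. Pearson's r with the S score was 0.383 and 0.178. Barcodes of a line share 1 library and its preparation, so these values describe the libraries and carry no p. Spearman's rho with the S score was also taken for a chosen part of the histone genes singly. Among these it ranged from 0.477 for H4C3 to -0.11 for H2BC5 in MDAMB468, and from 0.208 to -0.06 for the same genes in CAL51. H2BC5 had only 7 and 25 drawn UMIs, so its values are no finding.

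Each score was split into terciles. In MDAMB468 the mean was 2.41 histone UMIs per 2500 where both scores were in their lowest tercile (37 barcodes). It was 5.75 with the highest S and the lowest G2M score, 15.8 with the highest S and the middle G2M score, and 18.1 with both highest (18 barcodes, 7 of them satellites). With the lowest S score it was 5.29 with the middle and 4.59 with the highest G2M score. In CAL51 these means were 4.08, 7.66, 13.6, 16.6, 11.2 and 9.81. The means did not climb at every step: in CAL51 the middle S score gave 8.18, 13.2 and 11.1 from the lowest to the highest G2M score, and the lowest G2M score gave 4.08, 8.18 and 7.66 from the lowest to the highest S score. This split was chosen after the data were seen.

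**Figure D4:**
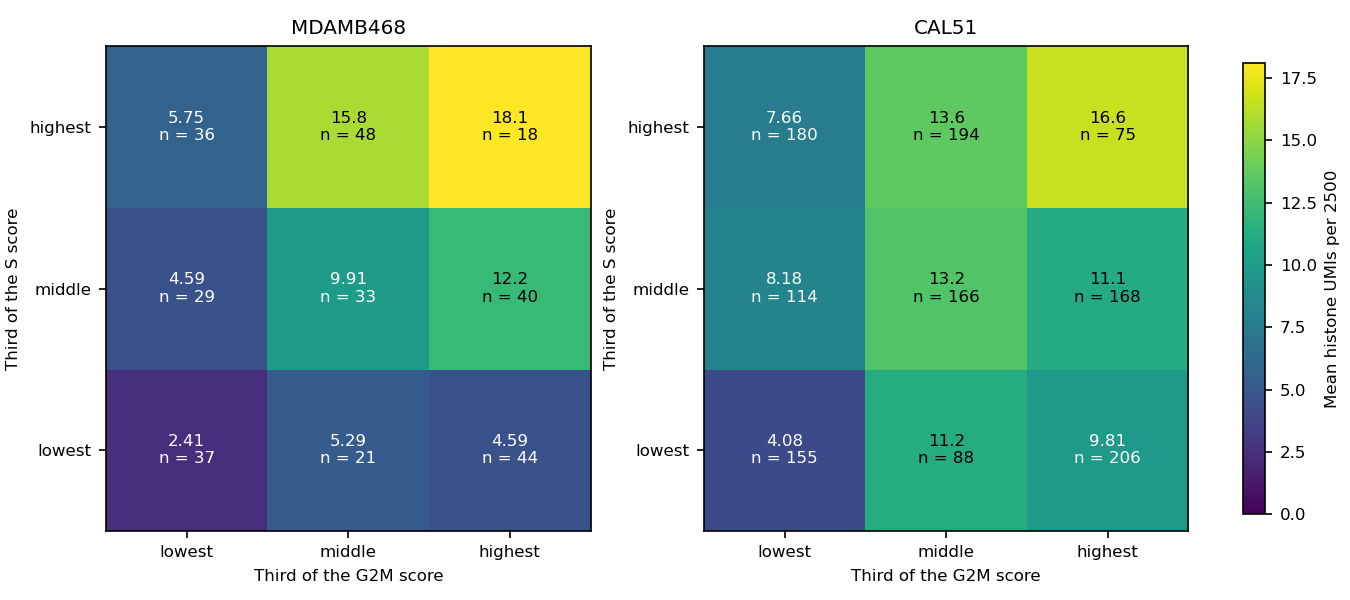
Mean histone UMIs per 2500 drawn UMIs in barcodes split into terciles of the S score (vertical) and of the G2M score (horizontal), with the number of barcodes n in each cell. In both lines the lowest mean is where both scores are lowest, 2.41 and 4.08, and the highest where both are highest, 18.1 and 16.6.

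Pairs of histone genes varied together to different degrees across barcodes. In MDAMB468 Spearman's rho of H4C3 was 0.497 with H1-3, 0.441 with H1-4 and 0.435 with H1-1. In CAL51 it was 0.606 with H1-4 and 0.443 with H1-3. With H2AC6 it was -0.11 and -0.08 in MDAMB468 and CAL51, and with H2AC25 -0.02 and -0.01. Genes with few drawn UMIs, such as the 28 of H2AC6 in MDAMB468, give low values whatever their relation, so the weak ones are no finding.

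Genes that act on histone mRNA and on histones were read from lists, beside the 15.8% of all features called higher and 18.6% called lower in MDAMB468. Of 22 tested genes of histone mRNA synthesis and processing, 0 were called higher and 2 lower in MDAMB468 than in CAL51: CDC25A (-1.78), a phosphatase that activates cyclin-dependent kinases, and CDK2 (-1.39), a kinase that acts on NPAT, named after its values were seen. NPAT itself, the coactivator of histone genes, was at 54.7 and 42.5 CPM. SLBP, the stem-loop binding protein, was at 120.1 and 188 CPM, and CASP8AP2, a factor of 3′ processing, at 89.1 and 83.3 CPM. SLBP, CASP8AP2 and CCNE2 are in the S-phase list and so helped to call the phases.

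Of 23 histone chaperones, 0 were higher and 3 lower in MDAMB468. The shares of lower genes among the processing genes and the chaperones were below that of all features. The 3 lower chaperones included CHAF1A (-1.25) and CHAF1B (-1.12), subunits of the assembly factor CAF-1. Both were named after their values were seen, and CHAF1B is also in the S-phase list. The other was UBN1, a partner of HIRA, with 0 UMIs in MDAMB468 and 565 in CAL51. Of 24 replication genes outside the phase lists, 0 were higher and 8 lower in MDAMB468, with a median difference of -0.87, and 18 in MDAMB468 and 22 in CAL51 were higher in S than in G1. Of the 43 genes of the S-phase list, 0 were higher and 14 lower, median -0.65. By calls the histone genes, with 11 higher and 4 lower, did not follow that pattern of direction, but their sum was lower in MDAMB468 (-0.32). Of the 7 genes called higher in S in both lines, most had negative line differences. These were H1-2 (-1.65), H1-4 (-1.10), H2AC20 (-0.63), H4C3 (-0.60) and H2AC17 (-0.51). H1-5 (0.02) and H1-3 (0.32) did not. To be among the 7, a gene needed at least 20 UMIs over S-called and G1-called barcodes in each line. That left out H1-1 (7.80) and H2AC14 (5.16), called higher in S in MDAMB468, and H2AC12 (-0.48), called higher in S in CAL51. The direction among the 7 is thus partly set by this minimum and is no finding. The contrast between lists was not tested.

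A list of core variants named as replication-independent gives a second comparison, although not all of them were level between G1 and S. Of 12 in the files, 2 were higher and 1 lower in MDAMB468, beside 15.8% and 18.6% of all features. H2AJ was at 113 and 3.51 CPM, and H2AX, the variant phosphorylated at DNA breaks, at 39.8 and 117 CPM. H3-3A was at 2569 and 1680 CPM, H3-3B at 995 and 1053 CPM and H2AZ1 at 972 and 1579 CPM. H2AX was 2.85-fold higher in S than in G1 in MDAMB468 (1.51 to 5.95) and 4.98-fold in CAL51 (3.40 to 7.58). For H3-3A these ratios were 1.07 and 0.896, and for H2AZ1 1.08 and 2.13. Of the variants tested, 3 of 11 in MDAMB468 and 4 of 12 in CAL51 were called higher in S, and 0 and 1 lower. CENPA, counted as higher in S in both lines (log2 differences 2.27 and 1.65), is in the phase lists and so helped to call the phases. Over all features 5.59% and 3.96% were called higher and 1.59% and 3.64% lower. The summed variants had log2 ratios of S to G1 of 0.10 and 0.27, beside 1.79 and 1.47 for the histone genes described above.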

How the data were processed

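The values were deposited UMI counts, whole numbers per gene and barcode, with no normalization by the authors visible in them. Per the submitters' processing notes, STARsolo was used; no version, genome build, annotation or barcode selection was given in the sources used here. Barcodes were assigned to lines by the name prefix. All 1683 barcodes had at least 2501 UMIs and no further filter was applied, apart from the 31 CAL51-labelled barcodes left out. No doublet caller was run. Symbols came from a table that matched 30730 identifiers; positions are those of GENCODE release 29, matched by identifier, and promoters those of RefSeq. Reads of near-identical histone copies may have been split or dropped in the authors' counting.

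Counts were summed per line or phase, scaled to CPM and compared as log2(CPM + 1), which understates differences of low genes. Intervals are exact at 95% and cover counting error only; a 0 was set against a floor of 3 counts. Scores and phases came from scanpy 1.11.5, each line by itself, and TMM factors from edgeR 4.0.16. The calling step was tested on simulated data. Named genes were all H1 genes past the UMI minimum, the 8 highest by CPM in each line, the 8 highest and 8 lowest line differences, the 6 highest and 3 lowest S differences in each line among genes with 30 UMIs over S and G1, the extremes of each list, and NPAT, SLBP, CASP8AP2, H2AZ1, H3-3A, H3-3B and H2AX. Those chosen after their values were seen were H1-6, H1-8, H2AC8, H2AC20, H2BC12, H2BC14, H3C9P, CDK2, CCNE2, CHAF1A, CHAF1B, CENPA and the marker genes given at 0. One gene of the set enters the sums and counts but is not reported here. The genes and lists were chosen with earlier results of these data known.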

Additional observations from a re-analysis of the deposited data

Results flagged for a closer look

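H1-1 had 17 UMIs in the 31 CAL51-labelled barcodes whose sequences occur in both libraries, which the main comparisons left out. That is 126 CPM, against 0.123 CPM in the 1346 CAL51 barcodes used and 192 CPM in the 31 MDAMB468 barcodes of the same sequences. With all CAL51 barcodes kept, the H1-1 level in CAL51 was 1.16 CPM. The median share of mitochondrial UMIs was 6.08% in these barcodes, 6.04% in MDAMB468 and 4.25% in CAL51. H2BC9 had 4 UMIs there and 0 elsewhere in CAL51, and H2AC14 had 0.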

How the results depend on the processing

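No paired analysis was possible because each line has 1 library, and leaving out a replicate was not possible for the same reason. The summed log2 difference between lines (-0.32) was -0.22 with a total without mitochondrial and ribosomal protein genes, -0.45 with TMM factors and -0.27 with mean CPM over barcodes, and TMM moved the median of all features by -0.12. The counts of genes higher (11) and lower (4) in MDAMB468 were 5 and 2 with a pseudocount of 10 CPM, 6 and 2 with at least 100 UMIs (fewer genes tested) and 17 higher with at least 1 UMI. For S against G1 in MDAMB468 the summed log2 ratio (1.79) was 0.998 with phases from 1000 UMIs, 1.94 without thinning, 1.47 with the lines scored together, 1.33 for the top against the bottom tercile by S score and 1.65 without satellites. In CAL51 (1.47) these were 1.26, 1.81, 1.72, 0.56 and 1.75, and 1.59 with counts thinned to 2500 UMIs. For S against G2M the ratio in MDAMB468 (0.13) was 0.38 with 1000 UMIs, 0.068 without thinning, -0.018 scored together, -0.014 with thinned counts and 0.25 in a second draw. In CAL51 (-0.13) it was 0.018, -0.26, -0.16, -0.30 and -0.032 in the same order, -0.050 without satellites and -0.043 with all barcodes kept. Genes higher in S in MDAMB468 (10) were 6 with 1000 UMIs and 5 with thinned counts, and those lower (3) were 5 by terciles, 0 with thinned counts and 1 with at least 100 UMIs. Genes higher in S in CAL51 (8) were 3 by terciles, 5 with thinned counts and 5 with a pseudocount of 10 CPM. Those lower (1) were 3 with the lines scored together, 3 without satellites, 3 with all barcodes kept, and 0 with thinned counts, a pseudocount of 10 CPM or at least 100 UMIs. Spearman's rho with the S score in MDAMB468 (0.487) was 0.371 with 1000 UMIs. The cause of these shifts was not tested, apart from the smaller numbers of genes or UMIs named. The other 65 of 111 summary values stayed within counting error of their main value, or within 1.5 times for counts. The second draw, the joint setting of no satellites with a pseudocount of 0.1 CPM, and the split into terciles of both scores were chosen after seeing the data. The contrast of terciles by S score was not run for S against G2M. At these depths 0 UMIs allow up to 0.670 CPM in MDAMB468 and 0.227 CPM in CAL51 (exact 95% upper bounds), and no value here measures variation between cultures.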
